A study of Zea mays with 18 samples.

Results

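Abundant nuclear genes whose read counts stood at like levels in both parts of the maize (Zea mays) endosperm numbered 32, of 44146 nuclear gene models and 46430 features counted. They were chosen by their levels: at least 100 CPM (counts per 1000000, a feature's count divided by the sum of all feature counts of its library, times 1000000) in every one of 18 libraries, and a mean aleurone CPM of 0.67 to 1.5 times the mean starchy endosperm CPM. A further 2 features were set aside when the rule was written and are not reported here. The level and the compartment ratio of these genes are therefore descriptions, with no test. Differences between genotypes were tested, within a limit: the rule did not compare genotypes, but a gene under 100 CPM in any genotype's libraries could not be chosen. The gene models carry IDs of an older annotation that neither the count tables nor the available reference table pairs with a name, so the 32 genes are given by ID, with no function and no sequence.

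The libraries come from endosperm of the inbred line W22 at 19 days after pollination, from self-pollinated plants grown in the field, with the compartments cut out by laser microdissection. There were 3 libraries in each of 6 groups: r1-m3 aleurone, R1-sc aleurone, R1-g aleurone, r1-m3 starchy endosperm, R1-sc starchy endosperm and R1-g starchy endosperm. The genotypes are named for alleles of r1, all 3 in that one background, and R1-g is the wild type of the series. Every library was made from 5 ng of captured RNA that was amplified to cDNA before sequencing, and 12.5 M to 20.4 M counts per library fell on features (M stands for 1000000).

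The endosperm feeds the embryo and the seedling. Its outermost cells, the aleurone, stay alive in the dry seed, secrete enzymes at germination and, in coloured maize kernels, hold the anthocyanin pigment that the r1 transcription factor switches on. The cells inside, the starchy endosperm, fill with starch and storage protein and die as the grain matures. Genes with similar transcript levels in different tissues are often those for basic cell functions, and such genes are commonly used as references when the levels of others are compared. Whether the 32 genes are of that kind cannot be read from IDs. The marker genes of the compartments could not be looked up for the same reason, so the labelled compartments were not checked against named markers here.

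Replicate 3 of r1-m3 aleurone stood apart from the other libraries. Its level lay between those of replicates 1 and 2 for 28 of the 32 genes, while in the 15 libraries outside this group a library lay between the other replicates of its group for 4 to 17 of the 32. Over features whose mean in the other replicates of the group was at least 100 CPM, it lay between them for 1214 of 1380 (88.0%), against 16.99% to 52.7% in those 15 libraries. For Zm00001d031168, the gene with the highest CPM, it held 2458 CPM, against 2737 and 2270 CPM in replicates 1 and 2. For Zm00001d041105 it held 622 CPM, against 683 and 558 CPM. The series lists it as a biological replicate, but these values leave it in doubt as a separate sample, and the reason was not tested. It entered the rule, which asks for 18 libraries, and the ranges and medians over 9 aleurone libraries, but is left out of the group means, SDs and tests below (n = 2 in r1-m3 aleurone), and results with it are given where they differ. Without it the rule gave 32 genes again, with 31 in common: Zm00001d021421 was lost and Zm00001d017072 gained.

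Few nuclear genes were abundant everywhere. At least 100 CPM was reached by 4944 nuclear genes in 1 or more libraries, by 280 in all 9 aleurone libraries, by 256 in all 9 starchy endosperm libraries and by 85 in all 18. Of these 85, 32 were the even genes, 21 had a ratio above 1.5 and 32 a ratio below 0.67. The genes with a ratio below 0.67 took 3.36% of the aleurone counts and 39.5% of the starchy endosperm counts, and those above 1.5 took 2.10% of the aleurone counts and 0.767% of the starchy endosperm counts. The even genes together took 1.54 ± 0.160% of the aleurone counts (SD, n = 8) and 1.58 ± 0.0887% of the starchy endosperm counts (n = 9). These near-equal shares follow from the rule. In tissue samples like these, fewer cells that express a gene and less of its RNA per cell cannot be told apart.

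**Figure D1:**
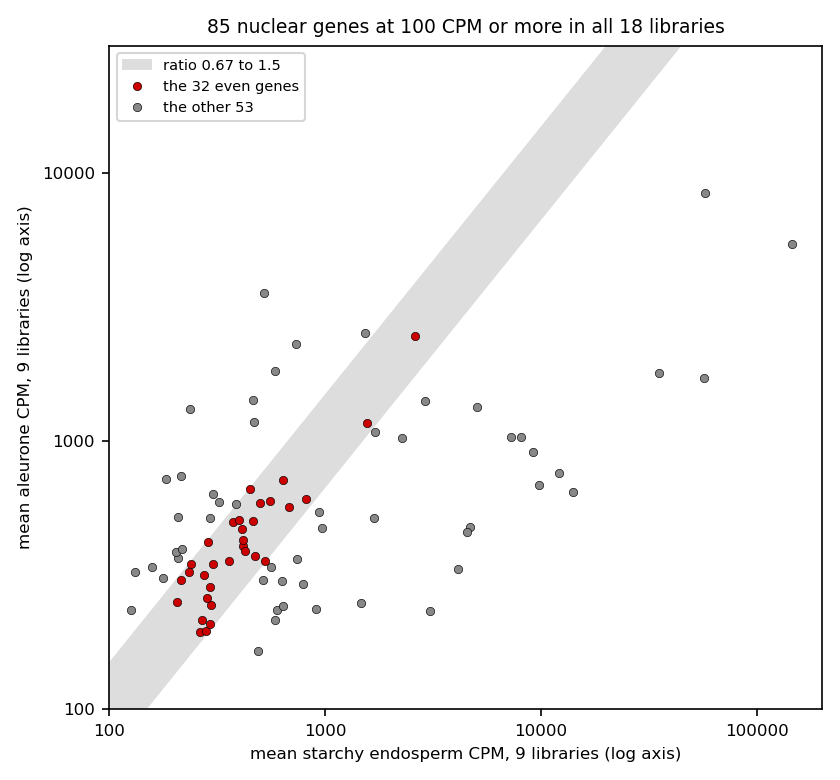
Mean level in the 9 aleurone libraries (vertical, CPM, log axis) against the 9 starchy endosperm libraries (horizontal, CPM, log axis) for the 85 nuclear genes at 100 CPM or more in all 18 libraries. The 32 even genes (red) lie in the grey band of ratios from 0.67 to 1.5, and the 53 others (grey) on either side of it.

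Among the 32 genes, 12 averaged under 300 CPM over the 6 groups, 15 averaged 300 to 600 CPM and 5 more than that, with a span of 228 to 2535 CPM. CPM is not divided by transcript length, so the order of levels is an order of reads and not of transcript numbers. Reads that aligned to several places were given to no feature, and a gene with near-identical copies would be counted too low. The smallest count of any of these genes in any library was 1432 reads, for which counting error is 2.64%.

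Zm00001d031168 had the highest CPM of the 32. Its 9 aleurone libraries spanned 1239 to 4093 CPM with a median of 2440, and its 9 starchy endosperm libraries spanned 1694 to 3704 CPM with a median of 2692. Zm00001d043382 followed, with 783 to 1647 CPM (median 1207) in the aleurone and 1365 to 1880 CPM (median 1544) in the starchy endosperm. Together these genes made up 15.5% to 32.4% of the counts on the 32 genes in a library, so sums over the group follow them. For both genes the libraries of the compartments overlapped.

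Zm00001d035558 spread more widely, from 321 to 1143 CPM (median 512) in the aleurone and from 190 to 1402 CPM (median 739) in the starchy endosperm. Zm00001d001913 held 354 to 1062 CPM (median 705) in the aleurone and 439 to 799 CPM (median 661) in the starchy endosperm. Zm00001d018911 held 245 to 1025 CPM (median 551) in the aleurone and 415 to 1281 CPM (median 600) in the starchy endosperm. The compartment with the wider span in CPM differed among these 3 genes. The next in level, Zm00001d041105, held 357 to 1041 CPM (median 558) in the aleurone and 305 to 728 CPM (median 555) in the starchy endosperm. For Zm00001d023795 the aleurone libraries stood at 246 to 928 CPM (median 679) and the starchy endosperm libraries at 231 to 665 CPM (median 413), which gave the highest compartment ratio of the 32. Levels of Zm00001d033850 ran from 277 to 1112 CPM (median 477) in the aleurone and from 364 to 631 CPM (median 499) in the starchy endosperm, with the aleurone libraries reaching both lower and higher. The same held for Zm00001d042525, at 190 to 787 CPM (median 496) in the aleurone and 331 to 666 CPM (median 445) in the starchy endosperm. Zm00001d032359 stood at 291 to 706 CPM (median 524) in the aleurone and 178 to 683 CPM (median 379) in the starchy endosperm. The other 22 genes averaged 228 to 442 CPM, and the libraries of the compartments overlapped for all 32.

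**Figure D2:**
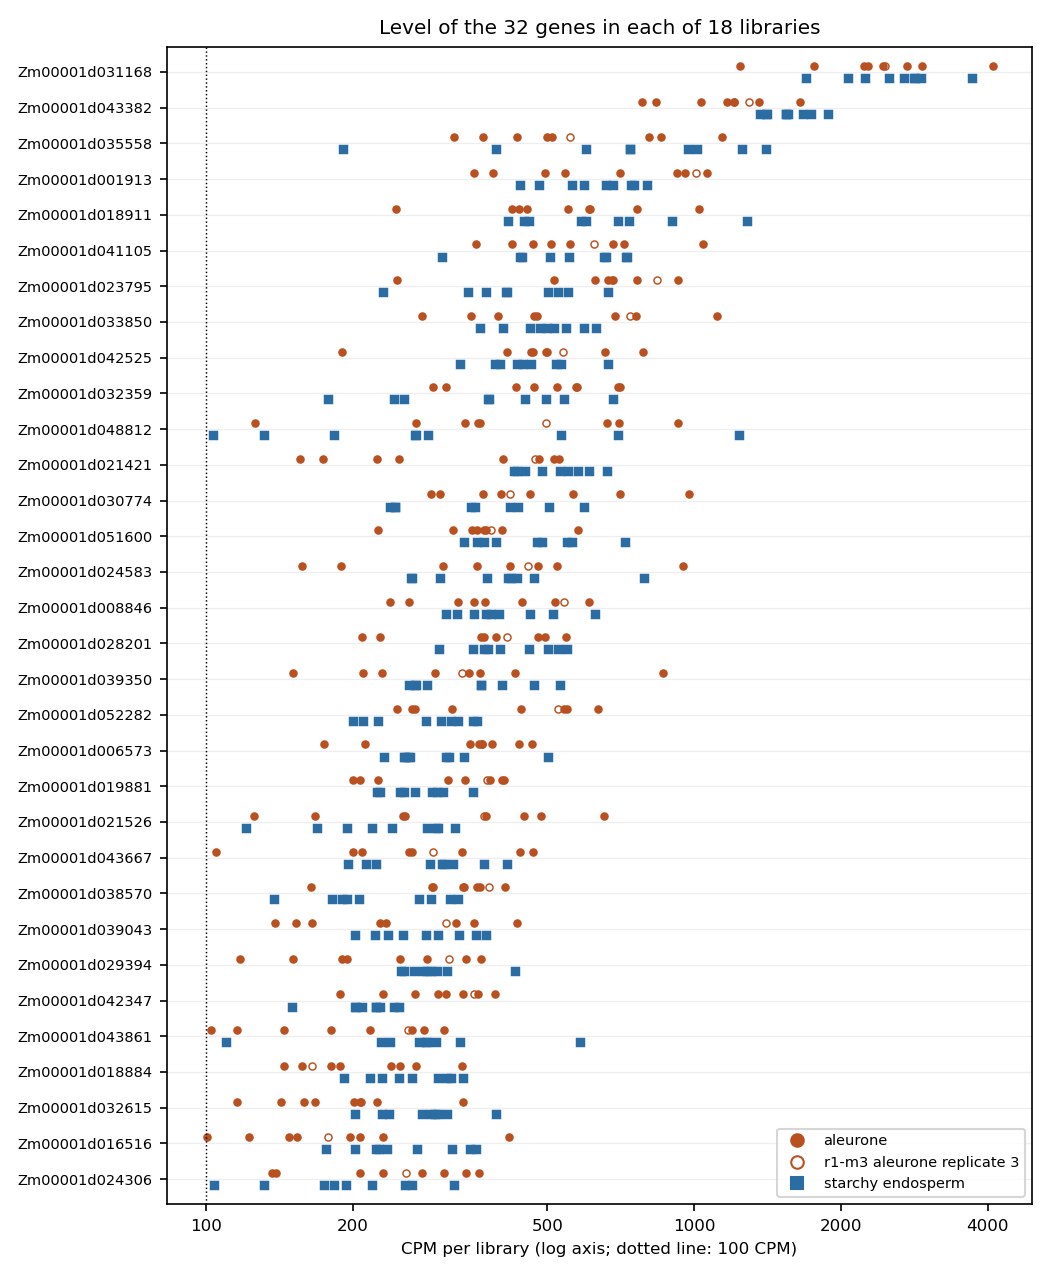
Level of each of the 32 genes in every library (CPM, log axis), with aleurone libraries as circles above starchy endosperm libraries as squares in each row, and r1-m3 aleurone replicate 3 as the open circle. Each row holds overlapping compartments, and the circles usually spread more than the squares.

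The ratio of mean aleurone to mean starchy endosperm CPM had a median of 1.02 over the 32 genes, with 17 genes above 1 and 15 below, and 17 genes lay between 0.8 and the inverse of 0.8. Just inside the lower limit were Zm00001d021421 at 0.678 and Zm00001d032615 at 0.695, and just outside it Zm00001d023376 at 0.642 and Zm00001d033931 at 0.606. Near the upper limit, Zm00001d023795 at 1.48 and Zm00001d052282 at 1.47 were inside, and Zm00001d017072 at 1.501 and Zm00001d010321 at 1.65 outside. For the minimum level, the lowest library held 100.5 CPM in Zm00001d016516 and 102 CPM in Zm00001d043861, which were kept, and 95.4 CPM in Zm00001d010733 and 95.2 CPM in Zm00001d021741, which were not. A further view of that limit is that 13 genes with an even ratio fell short of 100 CPM in only 1 library. The membership is thus a line drawn through a continuous range of values.

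Which genes count as even depended on how libraries were scaled. The aleurone libraries gave 21.4 ± 3.51% of their counts to mitochondrial ribosomal RNA (SD, n = 8) and the starchy endosperm libraries 9.69 ± 1.29% (n = 9). TMM scaling, which equalises the bulk of moderately expressed features, gave factors of 1.17 to 1.64 in the aleurone and 0.663 to 0.813 in the starchy endosperm. On that scale the median ratio of the 32 genes was 0.528, with 26 genes below 0.67 and 6 within the limits. The rule applied to TMM-scaled CPM chose 24 genes, of which 5 were among the 32, that is 15.6% of the 32 and 20.8% of the 24. Scaling to nuclear counts alone gave a median of 1.18, with 26 genes within the limits and 6 above. Leaving the 20 features of highest mean CPM out of the totals, an alternative chosen after the values were seen, gave 0.658, with 16 genes within the limits and 16 below.

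The rule fixed the ratio of the 32 genes, and a scaling moves all genes of a library alike, so their distance from other features is nearly 1 value and not a result of each scaling. Over 16728 tested features with counts in both compartments, the median log2 ratio of aleurone to starchy endosperm was 1.51 on library totals, where the median of the 32 genes was 0.02. With TMM scaling these medians were 0.56 for all features and -0.92 for the 32 genes, with nuclear totals 1.73 and 0.24, and without the 20 features 0.88 and -0.60. Even here means an even share of all feature counts.

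**Figure D3:**
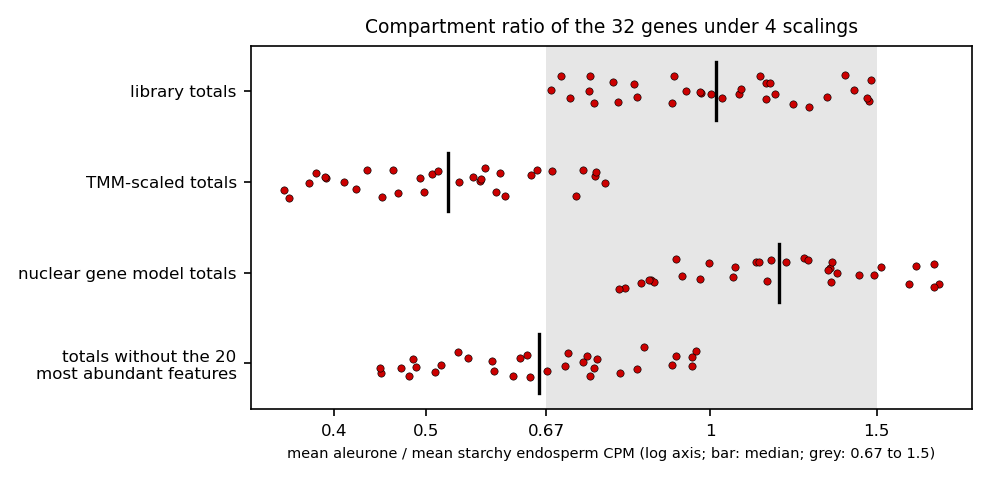
Ratio of mean aleurone to mean starchy endosperm CPM (log axis) of the 32 genes, with each point a gene and the bar the median, under library totals, TMM-scaled totals, nuclear gene model totals and totals without the 20 most abundant features. The medians stand at 1.02, 0.528, 1.18 and 0.658, and only library totals, which defined the rule, put all 32 genes inside the grey limits of 0.67 to 1.5.

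Within groups, replicate libraries of these genes differed more in the aleurone. The SD of log2 CPM among replicates, pooled over the groups of a compartment, had a median of 0.57 among aleurone libraries and 0.31 among starchy endosperm libraries, and it was the larger in the aleurone for 27 of the 32 genes. For the 53 other nuclear genes at 100 CPM or more in all libraries it was larger in the aleurone for 30. The minimum of 100 CPM cuts off low values in every library, so these SDs describe genes chosen for having none. Zm00001d043382 had an SD of 0.31 among aleurone libraries and 0.09 among starchy endosperm libraries, and for Zm00001d033850 it was 0.66 in the aleurone, against 0.16 in the starchy endosperm. The clearest case in the other direction was Zm00001d048812, at 0.73 among aleurone libraries and 1.29 among starchy endosperm libraries.

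Over both compartments, Zm00001d019881 varied least within groups, with a pooled SD of 0.21. Its libraries held 404 and 339 CPM in r1-m3 aleurone, 225, 207 and 200 CPM in R1-sc aleurone and 408, 313 and 381 CPM in R1-g aleurone. Its starchy endosperm libraries held 227, 351 and 267 CPM in r1-m3, 249, 254 and 305 CPM in R1-sc and 224, 297 and 290 CPM in R1-g. R1-sc aleurone had the lowest mean of its 6 groups, and the span over 18 libraries was 2.04-fold. Next in steadiness were Zm00001d043382, with a pooled SD of 0.22 and a 2.40-fold span, and Zm00001d042347, with 0.24 and a 2.61-fold span.

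The widest scatter was in Zm00001d048812, with a pooled SD of 1.07 and a 12.0-fold span. It held 1235, 103 and 532 CPM in the R1-g starchy endosperm libraries, so that the highest and the lowest of its 18 libraries belonged to the same group. Zm00001d035558 had an SD of 0.68 and a 7.36-fold span, with 1012, 190 and 393 CPM in R1-g starchy endosperm. Zm00001d039350, with an SD of 0.63, held 863, 209 and 346 CPM in R1-g aleurone. Across the 32 genes the highest library stood 2.04 to 12.0 times above the lowest, with a median of 3.57, and 18 genes stayed within 4-fold. The highest library was an aleurone one for 19 genes, and the lowest was an aleurone one for 21.

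The compartment ratio of the rule pooled the genotypes, and differences between r1 alleles were tested within each compartment, among genes that reached the minimum level in all of them. Of the 32 genes, 0 differed among r1-m3, R1-sc and R1-g in the aleurone by edgeR's quasi-likelihood F test, where 0.408% of 19111 features tested were called (adjusted p under 0.05). For the starchy endosperm the count was also 0, against 0.0994% of all features. The test of whether the compartment difference depends on genotype called 0 as well, against 0.136% of all features. A count of 0 among 32 genes is close to these background shares. At an unadjusted p under 0.05 there were 2 of the 32 genes in the aleurone (12.7% of all features), 0 in the starchy endosperm (7.44%) and 1 for the interaction (9.42%). These unadjusted counts depended on the fit, and why they differed was not tested. The main fit and limma-trend share their estimate of spread between compartments. Fits to 1 compartment alone gave 3 in the aleurone (1144 of 16823 features) and 4 in the starchy endosperm (1078 of 12909). By limma-trend there were 4 in the aleurone, 2 in the starchy endosperm and 2 for the interaction (2580, 1072 and 1505 of 19111 features). DESeq2 and limma-trend also called 0 of the 32 in each test, while DESeq2 called 3.18% of all features in the aleurone, 0.926% in the starchy endosperm and 1.26% for the interaction. With all 18 libraries edgeR again called 0 of the 32 genes in each test, where it called 0.854%, 0.116% and 0.211% of all features for aleurone, starchy endosperm and interaction. These results do not show that the levels were equal: the biological coefficient of variation that edgeR fitted was 0.526 to 0.699 for the 32 genes, and the standard errors below leave room for differences of about the size seen. edgeR draws that value towards those of other features, so it is not the scatter of these replicates alone. Their pooled within-group SD of log2 CPM had a median of 0.46. Zm00001d019881, with an SD of 0.21, had an SE of 0.43 for R1-sc against R1-g in the aleurone.

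In the aleurone, Zm00001d021526 had the lowest p. Its libraries held 486 and 253 CPM in r1-m3, 167, 255 and 125 CPM in R1-sc and 375, 448 and 655 CPM in R1-g. All R1-sc libraries were below all R1-g libraries, and r1-m3 overlapped both. The log2 fold change on the TMM scale was -0.65 (SE 0.57) for r1-m3 against R1-g, -1.37 (SE 0.51) for R1-sc against R1-g and 0.72 (SE 0.55) for r1-m3 against R1-sc, and the test of any genotype difference did not pass (edgeR adjusted p = 0.361, and 0.223 to 0.713 over 25 alternative fits). Starchy endosperm levels of this gene averaged 203 ± 87.9 CPM in r1-m3, 237 ± 79.5 CPM in R1-sc and 274 ± 30.4 CPM in R1-g (SD, n = 3 each), with overlapping libraries.

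Zm00001d024583 was second, with 306 and 524 CPM in r1-m3 aleurone, 949, 479 and 359 CPM in R1-sc aleurone and 157, 420 and 189 CPM in R1-g aleurone. The genotypes overlapped, and 1 library reached 949 CPM in R1-sc. The log2 fold change of R1-sc against R1-g was 1.26 (SE 0.48), with an edgeR adjusted p of 0.376 for any genotype difference (0.233 to 0.756 over the alternatives). Zm00001d031168 came next, at 2504 ± 330 CPM in r1-m3 aleurone (SD, n = 2), 1742 ± 493 CPM in R1-sc aleurone and 3154 ± 849 CPM in R1-g aleurone (n = 3 each). On library totals its R1-sc libraries, at 1762, 2225 and 1239 CPM, lay below all libraries of the other genotypes. Those held 2737 and 2270 CPM in r1-m3 and 2440, 2930 and 4093 CPM in R1-g. This difference did not pass either (edgeR adjusted p = 0.423).

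Zm00001d030774 had the lowest p in the starchy endosperm. It held 435, 593 and 503 CPM in r1-m3, 238, 244 and 244 CPM in R1-sc and 348, 420 and 355 CPM in R1-g, so that the genotypes did not overlap. The log2 fold change was 0.40 (SE 0.43) for r1-m3 against R1-g, -0.63 (SE 0.43) for R1-sc against R1-g and 1.03 (SE 0.43) for r1-m3 against R1-sc, and the test did not pass (edgeR adjusted p = 0.702, and 0.478 to 1 over the alternatives). In the aleurone the same gene overlapped among genotypes, at 564 and 302 CPM in r1-m3, 706, 288 and 370 CPM in R1-sc and 976, 460 and 402 CPM in R1-g. For Zm00001d035558 the starchy endosperm libraries held 1402, 970 and 1256 CPM in r1-m3, 739, 600 and 738 CPM in R1-sc and 1012, 190 and 393 CPM in R1-g. The r1-m3 and R1-sc libraries lay apart and R1-g reached across both (log2 fold change of r1-m3 against R1-g 1.10, SE 0.49, edgeR adjusted p = 0.707). Next by p was Zm00001d048812, whose R1-g starchy endosperm libraries are given above (edgeR adjusted p = 0.79).

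Libraries of 1 genotype lay wholly outside the range of both other genotypes for 4 of the 32 genes in the aleurone, where this held for 13.1% of all features tested. In the starchy endosperm it held for 7 of the 32, a larger share than the 7.66% of all features. The features tested include many of far lower level than these genes, so those shares are not a like background. The 4 in the aleurone, given because their number is small and chosen after their values were seen, were Zm00001d031168, Zm00001d019881 and Zm00001d038570, lowest in R1-sc, and Zm00001d029394, lowest in R1-g. Among the 7 in the starchy endosperm, R1-sc was the genotype apart on library totals for 4, lower in 3 and higher in 1. For 1 of those 3, Zm00001d030774, r1-m3 was equally apart, above both other genotypes. Zm00001d031168 was highest in R1-g there, at 2091 ± 409 CPM in r1-m3, 2583 ± 306 CPM in R1-sc and 3154 ± 478 CPM in R1-g (SD, n = 3 each). For Zm00001d043382, r1-m3 was the highest, at 1764 ± 106 CPM, against 1439 ± 93.0 CPM in R1-sc and 1503 ± 81.3 CPM in R1-g. With 2 or 3 libraries per genotype, such separations have no test of their own here beyond those above. They were read from CPM on library totals, while the tests ran on the TMM scale, which divides CPM by the TMM factor. That factor was 1.17 in R1-sc aleurone replicate 2, against 1.64 and 1.42 in r1-m3 aleurone replicates 1 and 2. In the starchy endosperm it was 0.663 and 0.675 in R1-sc replicates 2 and 3, against 0.702, 0.730 and 0.769 in the r1-m3 replicates. On the TMM scale the separations of Zm00001d031168 in both compartments and of Zm00001d038570 in the aleurone do not hold. Those of Zm00001d033850 and Zm00001d016516 in the starchy endosperm do not hold either. Of the 3 genes with R1-sc lower there, that leaves Zm00001d030774.

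**Figure D4:**
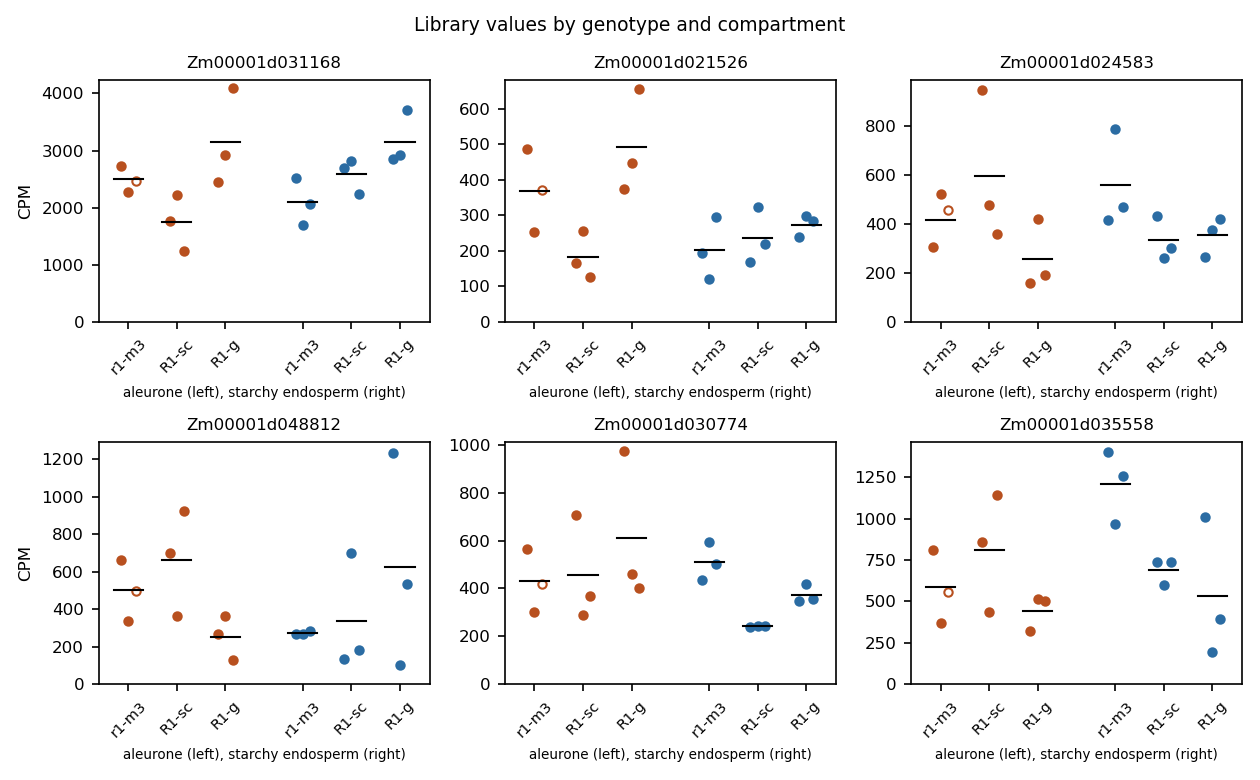
Level in CPM of 6 genes in every library, with the genotypes r1-m3, R1-sc and R1-g in the aleurone (left) and the starchy endosperm (right) of each panel, black bars at group means and the open circle for r1-m3 aleurone replicate 3, which is not in its mean. R1-sc aleurone lies lowest for Zm00001d031168, the starchy endosperm genotypes lie apart for Zm00001d030774, and most other groups overlap.

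By group means of CPM on library totals, r1-m3 was the highest genotype in the aleurone for 20 of the 32 genes and R1-sc the lowest for 18. With TMM scaling r1-m3 was highest for 7 and R1-sc lowest for 15, and with nuclear totals r1-m3 was highest for 18 and R1-sc lowest for 18. A library's scaling factor moves all its genes alike, so these counts are not separate results for 32 genes. The starchy endosperm had no such lead: r1-m3 was highest for 13 genes and R1-g for 14 on library totals and with TMM scaling, and for 15 and 12 on nuclear totals. The highest genotype mean stood a median of 1.54 times above the lowest in the aleurone and 1.37 times in the starchy endosperm, and 14 and 22 of the 32 genes stayed under 1.5-fold. The summed share of the 32 genes was 1.70 ± 0.135% in r1-m3 aleurone (n = 2), 1.39 ± 0.0985% in R1-sc aleurone and 1.58 ± 0.0917% in R1-g aleurone (SD, n = 3 each). In starchy endosperm libraries it was 1.63 ± 0.0355% in r1-m3, 1.502 ± 0.122% in R1-sc and 1.61 ± 0.0321% in R1-g (n = 3 each).

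The rule put all 32 pooled ratios within its limits, so counts within single genotypes could only be 32 or fewer and are given as a description. The ratio, here from all 18 libraries, lay within 0.67 to 1.5 for 24 genes in r1-m3, 25 in R1-sc and 20 in R1-g, and in all 3 genotypes for 13. It lay within the limits in 2 genotypes for 12 genes, in 1 for 6 and in 0 for 1. The ratio was above 1 in 1 genotype and below 1 in another for 18 of the 32. Without r1-m3 aleurone replicate 3 it was 25 genes in r1-m3, and 13 in all 3 genotypes as before. Zm00001d041105 was among the steadiest, with ratios of 1.02 in r1-m3, 1.13 in R1-sc and 1.08 in R1-g, although its R1-g ratio became 0.693 without R1-g aleurone replicate 3. Zm00001d042525 had ratios of 1.21 in r1-m3, 1.002 in R1-sc and 1.02 in R1-g.

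Zm00001d048812 had the ratios that differed most, at 1.83 in r1-m3, 1.97 in R1-sc and 0.404 in R1-g, outside the limits in each genotype while its pooled ratio was 1.15. In the aleurone it held 663 and 339 CPM in r1-m3, 701, 364 and 927 CPM in R1-sc and 269, 361 and 126 CPM in R1-g. Its starchy endosperm libraries held 268, 268 and 285 CPM in r1-m3 and 131, 700 and 183 CPM in R1-sc, beside the R1-g values above. Its R1-g ratio was 0.793 without R1-g starchy endosperm replicate 1, and its R1-sc ratio was 4.23 without R1-sc starchy endosperm replicate 2. It had the lowest p of the 32 for a genotype-dependent compartment difference, which did not pass (edgeR adjusted p = 0.515, and 0.251 to 0.931 over 24 alternative fits).

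Zm00001d016516 had ratios of 0.651 in r1-m3, 1.28 in R1-sc and 0.484 in R1-g. Its aleurone libraries held 148 and 207 CPM in r1-m3, 153, 197 and 417 CPM in R1-sc and 231, 122 and 100.5 CPM in R1-g, and its starchy endosperm libraries 225, 357 and 235 CPM in r1-m3, 176, 202 and 223 CPM in R1-sc and 270, 347 and 319 CPM in R1-g. In r1-m3 and in R1-g all aleurone libraries lay below all starchy endosperm libraries of the same genotype, and in R1-sc they overlapped (edgeR adjusted p = 0.596 for the interaction). Zm00001d024306 went the other way in R1-g, with ratios of 0.959 in r1-m3, 0.878 in R1-sc and 2.28 in R1-g. Its R1-g libraries held 362, 231 and 341 CPM in the aleurone and 131, 174 and 104 CPM in the starchy endosperm and did not overlap (edgeR adjusted p = 0.644 for the interaction). For Zm00001d024583, second by p in that test, the ratio was 0.77 in r1-m3, 1.79 in R1-sc and 0.722 in R1-g (edgeR adjusted p = 0.571). Leaving out 1 library at a time moved 10 of 576 such ratios by more than 1.5-fold, in 8 of the 32 genes, of which Zm00001d041105 and Zm00001d048812 are given above. The R1-g ratio was 1.52 without R1-g starchy endosperm replicate 1 for Zm00001d035558 (0.835 with it), 0.834 without R1-g aleurone replicate 1 for Zm00001d039350 (1.42 with it) and 0.436 without that library for Zm00001d032615. The R1-sc ratio was 0.919 without R1-sc aleurone replicate 3 for Zm00001d033850 (1.52 with it) and 0.405 without R1-sc aleurone replicate 2 for Zm00001d018911 (0.684 with it). For Zm00001d021421 the R1-sc ratio was 0.387 without R1-sc aleurone replicate 2, and the R1-g ratio 0.364 without R1-g aleurone replicate 2.

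**Figure D5:**
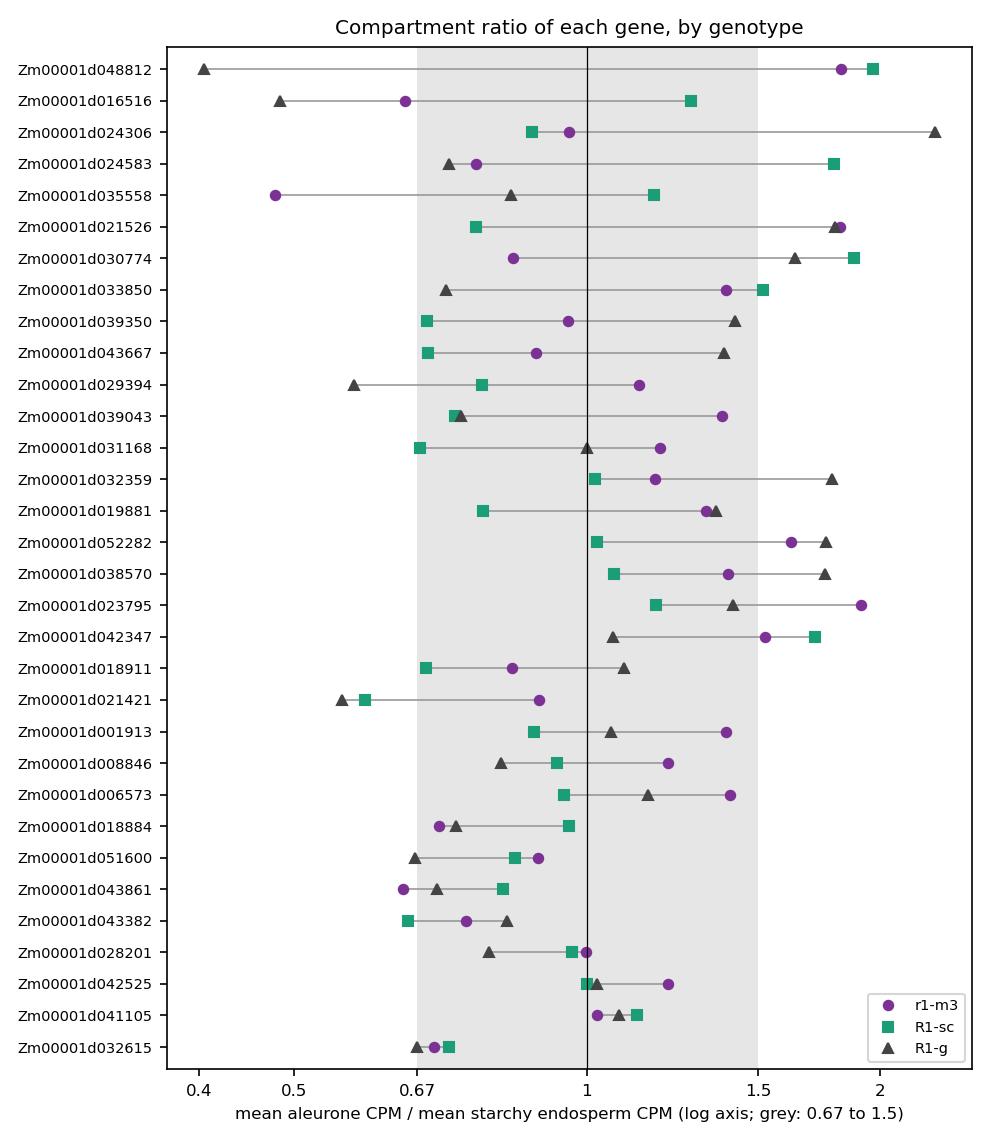
Mean aleurone over mean starchy endosperm CPM (log axis) of each of the 32 genes in r1-m3 (circles), R1-sc (squares) and R1-g (triangles), ordered by how far the genotypes differ, with the limits of 0.67 and 1.5 in grey. The spread between genotypes runs from 1.08-fold at the bottom to 4.86-fold for Zm00001d048812 at the top, and 13 genes have all 3 points within the limits.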

How the data were processed

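The files deposited by the authors are tables of raw read counts, 1 per library. The submitters' processing notes name, with no role or order, HTSeq 0.11.2, Trimmomatic 0.39, HISAT2, FastQC, DESeq2 and SAMtools, and the build B73 RefGen_v4. The strand setting is not given in the sources used here, so reads of overlapping and antisense genes cannot be told apart. The 5 summary lines of each table name no gene and were left out; the largest, reads with several alignments, held 42.2% to 55.0% of all counts in a table. The cDNA was amplified and carries no molecular identifiers, so counting errors cover counting only.

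Python 3.11.15 computed CPM and the members. edgeR 4.0.16 (R 4.3.3) fitted 6 group means to 17 libraries (r1-m3 aleurone replicate 3 left out), with filterByExpr (19111 features kept, all 32 members among them), TMM and robust quasi-likelihood F tests with 2 degrees of freedom, adjusted by Benjamini and Hochberg over all features. The SE of a log2 fold change is its size over the square root of F. Pairs of genotypes were not tested singly. DESeq2 1.42.0 (likelihood ratio test) and limma 3.58.1 (limma-trend, prior count 2, added after the data were seen) were alternatives. Scripts were tested on simulated counts with planted changes larger than any between genotype means of the 32 genes (at most 2.70-fold, in the aleurone). That run does not show how often changes of the size seen would be called.

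Members, lists and tests were chosen with earlier results of these data known. Named genes are the 10 of highest CPM, the 3 of lowest p in each test, the 3 least and 3 most variable, those nearest each limit and the 3 whose ratio differs most between genotypes. Gene lists by product and marker lists need names and were void: the reference table (assembly Zm-B73-REFERENCE-NAM-5.0) matched 0 of the 32 IDs.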

Additional observations from a re-analysis of the deposited data

How the results depend on the processing

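The count of even genes called stayed at 0 in all 25 alternative fits of each genotype test and all 24 of the interaction. These were DESeq2, its size factors within edgeR, library totals without TMM factors, no filter on low counts, all 18 libraries, the replicate block, 1 compartment alone (genotype tests only), limma-trend and leaving out each of 17 libraries (range 0 to 0). The lowest adjusted p of any of the 32 genes was 0.223 in the aleurone, 0.321 in the starchy endosperm and 0.251 for the interaction. Where a replicate was left out of r1-m3 aleurone, its lone library was assumed to vary like the other groups. No pairing of libraries by replicate number was detected, which does not show that there was none. Over all features tested, deviations from group means correlated at -0.0814 to 0.0228 for same-numbered libraries and at -0.0253 to 0.0724 for others. The replicate block left the count at 0 in each test, with 46 calls among all features against 78 without it in the aleurone, 7 against 19 in the starchy endosperm and 22 against 26 for the interaction. Over all alternatives the calls among all features were 14 to 608 in the aleurone, 4 to 242 in the starchy endosperm and 9 to 242 for the interaction. The median compartment ratio of 1.02 moved to 0.528 with TMM-scaled totals, 1.18 with nuclear totals and 0.658 without the 20 most abundant features. It was 0.975 with medians over libraries and 0.980 to 1.06 when single libraries were left out. The rule gave 77 genes at a minimum of 50 CPM, 12 at 200 CPM, 17 with a ratio between 0.8 and its inverse, 52 with nuclear totals and 13 when each genotype had to be even, and 29 to 35 when single libraries were left out. Each gene had at least 1432 reads in every library, so counting error was at most 2.64%.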
